A study of Mus musculus with 44 samples.

Results

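The PAF1 complex is an RNA polymerase II elongation factor, and Leo1, Paf1, Ctr9, Cdc73, Rtf1 and Wdr61 encode its subunits. The 6 genes were taken by symbol from a kallisto table of mouse kidney. They were described as 35 transcript rows of 88198 in that table, and as sums per gene. They are 6 of 30284 genes with a matched transcript and 6 of the 12874 genes tested, those averaging 1 or more TPM (a transcript's abundance per length, as a share of its library), so every member passed. Leo1 was chosen by its measured TPM across the 6 times in these same libraries. Its TPM showed a daily rhythm in wild type and a much smaller fitted one in the knockout. Its rhythm and its genotype difference are therefore given as a description, with no test, and tests are reported for its 5 partners.

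The libraries were made from polyA RNA of kidneys of 129SV mice aged 8 to 12 weeks after birth, all under night-restricted feeding. 12 came from wild type (WT) and 12 from Bmal -/- mice (KO), a knockout of the clock activator gene Arntl (Bmal1). The labels name no tissue-restricted deletion and do not say which part of the gene is deleted. Each genotype was sampled at Zeitgeber time (ZT) 0, 4, 8, 12, 16 and 20 h, with libraries A and B at every time. The labels do not say that A and B are separate animals, so the spread between them may be technical. P-values measure only the spread of these libraries around the fit. That spread also holds departures from a cosine and, for level, genotype differences that vary with time.

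As background, the complex travels with polymerase II along transcribed genes. It promotes ubiquitination of histone H2B through the Rnf20-Rnf40 ligase and methylation of histone H3 on lysine 4 and other residues. Ctr9 is the scaffold on which the other subunits assemble, Paf1 and Leo1 form a heterodimer, and Cdc73 (parafibromin) is a tumour suppressor that contacts the polymerase. Rtf1 binds less tightly than the rest and carries the segment that stimulates H2B ubiquitination. Wdr61 is a WD-repeat protein shared with the SKI complex, which feeds RNA to the cytoplasmic exosome.

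Arntl RNA ran from 0.2947 to 12.92 TPM over the day in WT and from 4.186 to 6.279 TPM in KO. Its libraries did not overlap between genotypes at 5 of the 6 times, with WT above KO at ZT0 and ZT20 and below it at ZT8, ZT12 and ZT16. At ZT4 they overlapped, so Arntl gave no check of the labels there. The clock repressors Cry1 and Nr1d1 did. Cry1 stood at 1.035 TPM in the KO library labelled ZT4 A, whereas the other 11 KO libraries held 11.54 to 17.82 and the WT libraries at ZT4 held 0.8447 and 1.203. Nr1d1 was at 23.85 TPM there, against 1.235 to 3.458 in the other KO libraries and 22.03 and 32.95 in WT at ZT4. The clock gene Dbp was less clear. It was at 5.123 TPM there, above the other KO libraries (2.3 to 4.201) and below WT at ZT4 (5.877 and 11.09). By Cry1 and Nr1d1, the KO library labelled ZT4 A goes against its label. The partner rhythm counts, the Leo1 fit, the called level changes and some other results are also given without it, and the rest include it. Leo1, Paf1 and Ctr9 were each lower in it than in any other KO library. The 7 kidney markers summed to between 2949 and 3721 TPM in WT and between 3263 and 3792 in KO, and none was at 0 in any library.

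The promoter of Leo1 is shown because it was the one member window with a match to a clock element. It is the RefSeq sequence (GRCm38.p6) of the 250 bases that end just before the start of Leo1, chr9:75441274-75441523, plus strand, with the match to the REV-ERB/ROR element in capitals.
Leo1: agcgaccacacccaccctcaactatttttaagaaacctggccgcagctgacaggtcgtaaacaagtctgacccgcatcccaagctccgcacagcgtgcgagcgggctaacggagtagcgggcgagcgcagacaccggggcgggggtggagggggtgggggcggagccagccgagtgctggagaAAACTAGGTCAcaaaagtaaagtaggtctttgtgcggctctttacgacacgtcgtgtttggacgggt
This element is bound by the repressors Nr1d1 and Nr1d2 and the ROR activators. The capitals lie at bases -67 to -57 from the start, on the strand of the gene. Both strands were searched, and the 7-letter core TAGGTCA lies inside the longer match. The core was found in 2.24% of 32817 windows of the same length, and the full REV-ERB/ROR consensus in 0.155%. Windows were matched for 4 of the 6 members, Leo1, Paf1, Cdc73 and Rtf1, and not for Ctr9 or Wdr61. Those of Paf1, Cdc73 and Rtf1 held neither form. None of the 4 windows held the E-box CACGTG (6.02% of all windows), its variant CACGTT (3.85%), the D-box TTATGNAA (3.07%) or the cAMP response element TGACGTCA (1.55%). A match is a description of letters, and no binding was measured.

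Leo1 RNA in WT was lowest at ZT8 and ZT12 and highest at ZT0, and in KO it stood near the WT maximum at all times. Leo1 lies on chr9:75441524-75466432, plus strand (GRCm38), and its single transcript row, the protein-coding Leo1-201, carried all of its TPM. In WT, libraries A and B held 8.493 and 8.131 TPM at ZT0, 5.945 and 5.432 at ZT4, and 3.111 and 2.977 at ZT8. They held 2.850 and 3.180 TPM at ZT12, 4.919 and 4.954 at ZT16, and 7.570 and 6.687 at ZT20. The libraries of a pair lay close together, and the highest WT library held 2.98 times the TPM of the lowest. In KO, the pairs were 9.517 and 9.119 at ZT0, 6.744 and 8.140 at ZT4, and 7.676 and 7.181 at ZT8. Later they were 8.785 and 7.493 at ZT12, 9.548 and 8.103 at ZT16, and 8.820 and 8.396 at ZT20. The 12 KO libraries spanned 6.744 to 9.548 TPM (7.181 to 9.548 without the one labelled ZT4 A), and 5 of them lay above the highest WT library.

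**Figure D1:**
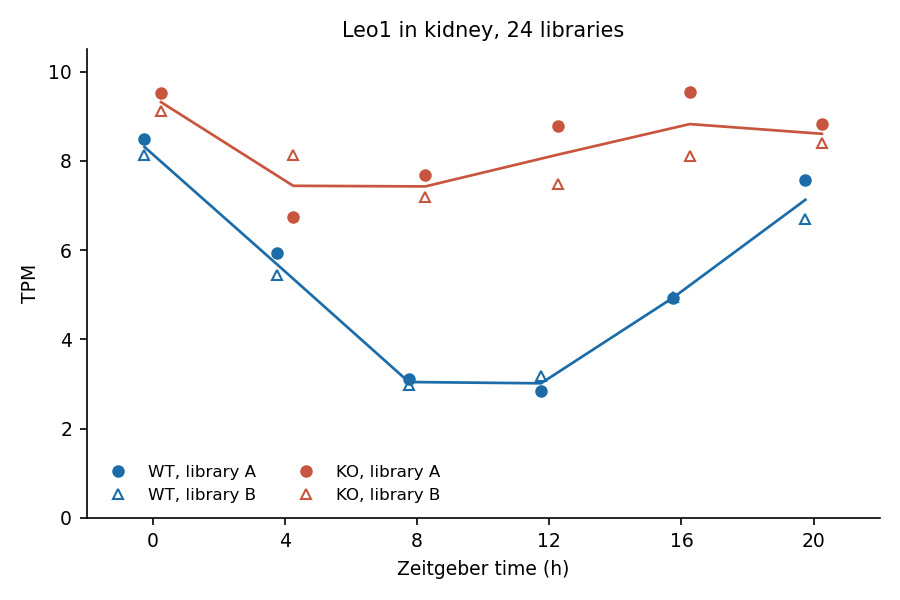
Leo1 level in TPM (vertical axis) against Zeitgeber time in hours, with filled circles for library A, open triangles for library B and lines through the means of the 2 libraries, WT in blue and KO in red. The WT libraries drop to about 3 TPM at ZT8 and ZT12 while the KO libraries stay between 6.744 and 9.548 TPM.

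The genotypes were furthest apart at the WT trough. The KO mean was 2.44 times the WT mean at ZT8 and 2.70 times at ZT12. The ratio was 1.79 at ZT16, 1.31 at ZT4 (1.43 without KO library A), 1.21 at ZT20 and 1.12 at ZT0. At each of the 6 times both KO libraries lay above both WT libraries. Ordered by mean level over the 12 groups, the 8 highest were all 6 KO times, WT ZT0 and WT ZT20, and among these 8 every neighbouring pair overlapped. Below them, WT ZT4, WT ZT16 and WT ZT8 were each separated from the group above, and WT ZT8 and WT ZT12 overlapped.

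A 24-hour cosine was fitted to log2(TPM + 0.1) in both genotypes with limma, and the peak-to-trough difference is given on that log2 scale. For Leo1 it was 1.54 (SE 0.10) in WT with a peak at 22.5 h (SE 0.25), and 0.29 (SE 0.10) in KO with a peak at 19.6 h (SE 1.3). The difference between the genotypes in mean level over the day was 0.72 (SE 0.12), KO higher. Leaving out the KO library labelled ZT4 A gave 0.25 for the KO peak-to-trough and 0.75 for the level difference. In WT, Leo1 made up between 2.56% and 7.17% of the summed TPM of the 6 members, and in KO between 5.59% and 7.14%. The Leo1 share thus covered a wider range of values in WT.

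Among the 5 partners, Cdc73 was the only one called rhythmic in WT, and it peaked near the time of Leo1. That is 1 of 5 at an adjusted p under 0.05 (limma, Benjamini-Hochberg over 12874 genes), against 13.7% of all genes tested, and 2 of 5 at an unadjusted p under 0.05. In KO, limma called 0 of 5 partners rhythmic (1 at an unadjusted p under 0.05), against 3.64% of all genes. A difference in rhythm between the genotypes was called for 0 of 5 (1 at an unadjusted p under 0.05), against 0.629% of all genes. These shares over all genes moved with single libraries: the KO count of 468 genes ran from 272 (without KO ZT0 replicate B) to 626, and the difference count of 81 ran from 37 (without WT ZT4 replicate B) to 112. The median peak-to-trough of the partners in WT was 0.05, below the median of 0.25 over all genes. In KO it was 0.21, close to the 0.215 over all genes. A fitted peak-to-trough is never below 0, so these medians hold noise as well as rhythm. Leaving out the KO library labelled ZT4 A kept the partner counts at 1, 0 and 0, against 16.6%, 3.75% and 0.87% of all genes in that fit.

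**Figure D2:**
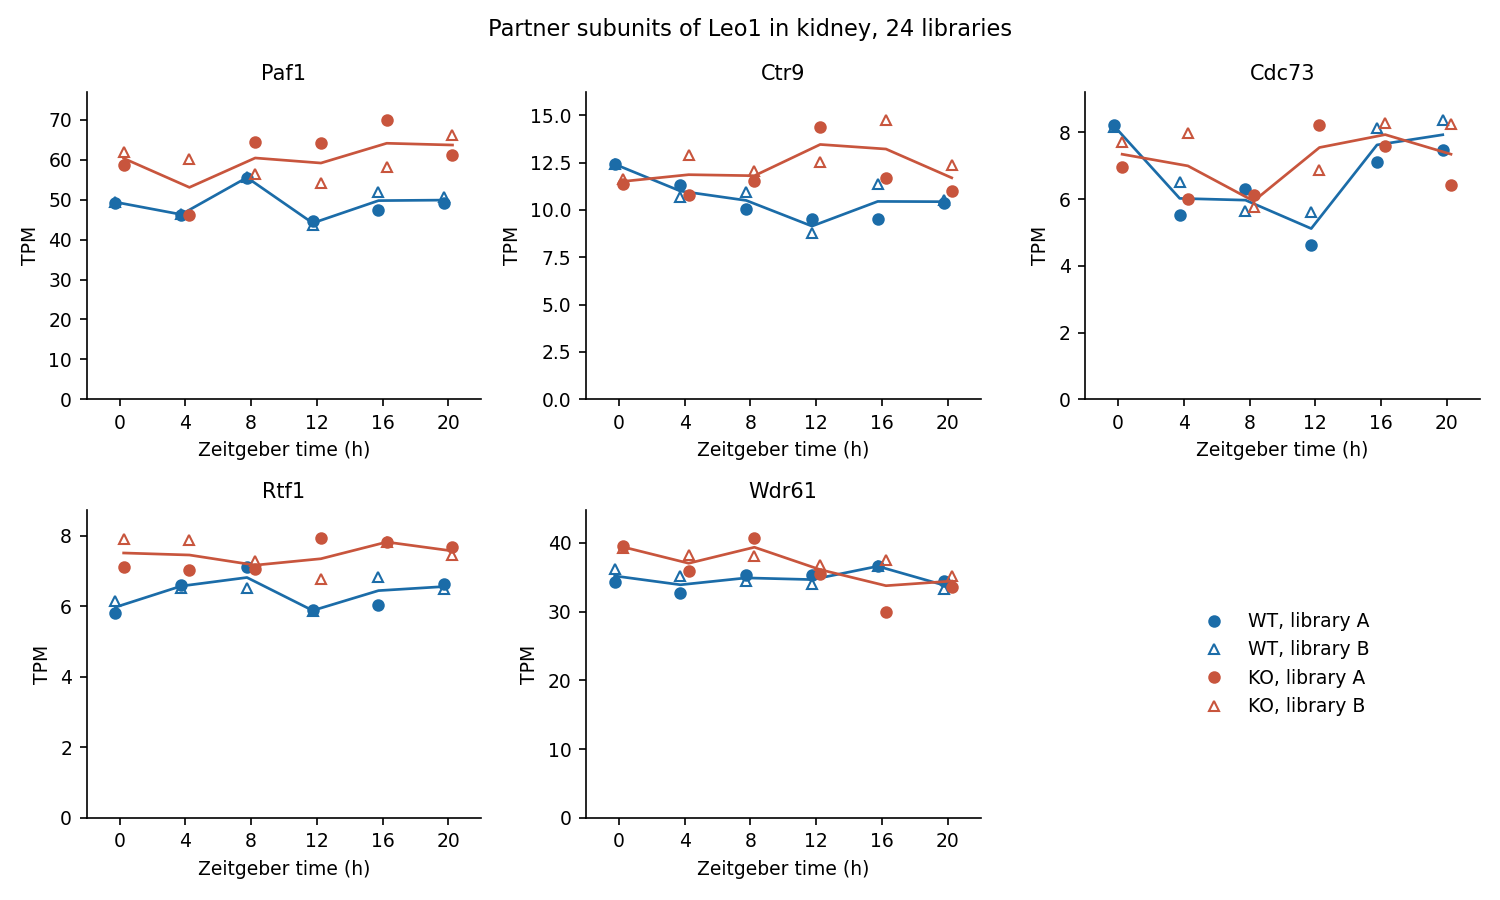
Levels in TPM (vertical axes, each from 0) of Paf1, Ctr9, Cdc73, Rtf1 and Wdr61 against Zeitgeber time in hours, with symbols for libraries A and B and lines through the means, WT in blue and KO in red. Cdc73 in WT runs from 4.621 to 8.37 TPM, whereas Rtf1, Paf1 and Wdr61 in WT stay within 1.28 times of their own lowest library.

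Cdc73 (chr1:143598800-143702893, minus strand) was high from ZT16 to ZT0 in WT. Its WT libraries held 8.222 and 8.164 TPM at ZT0, 5.535 and 6.504 at ZT4, 6.306 and 5.629 at ZT8, 4.621 and 5.611 at ZT12, 7.124 and 8.120 at ZT16, and 7.482 and 8.370 at ZT20. All 6 libraries from ZT16 to ZT0 lay above all 6 libraries from ZT4 to ZT12. The fitted peak-to-trough was 0.64 (SE 0.14), the peak at 21.2 h (SE 0.82) and the limma adjusted p 0.0101. It kept this call in all 24 fits that left out 1 library each, with adjusted p from 0.00648 to 0.0272. A fit with 6 time levels instead of a cosine gave a limma adjusted p of 0.054.

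In KO, Cdc73 libraries spanned 5.767 to 8.265 TPM, and the peak-to-trough was 0.28 (SE 0.14, limma adjusted p = 0.406). At ZT12 both KO libraries, 8.209 and 6.879 TPM, were above both WT libraries. At ZT0 both KO libraries, 6.975 and 7.710 TPM, were below both WT libraries. The test of the difference in rhythm did not pass (limma adjusted p = 0.399), so the call in WT and its absence in KO do not show that the rhythms differ.

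The Cdc73 row that passed in WT is not the protein-coding one. The protein-coding Cdc73-201 (11586 bases) carried 31.4% of the gene's TPM and ranged from 1.942 to 2.248 TPM in WT, with a peak-to-trough of 0.11 (SE 0.10, limma adjusted p = 0.752). The processed transcript Cdc73-203 (3134 bases, 33.9%) fell from 2.695 and 2.598 TPM at ZT0 to 1.619 and 1.808 at ZT8 and stood at 2.599 and 2.715 at ZT16. Its peak-to-trough was 0.61 (SE 0.13) with a peak at 20.6 h and a limma adjusted p of 0.0198, which became 0.0819 without WT ZT8 replicate A and 0.0537 without WT ZT8 replicate B. The short nonsense-mediated-decay row Cdc73-202 (479 bases, 33.0%) ranged from 0.763 to 3.62 TPM in WT, with a peak-to-trough of 1.32 (SE 0.37, limma adjusted p = 0.0814). When genes were summed over protein-coding rows alone, the Cdc73 peak-to-trough was 0.11 and the limma adjusted p was 0.614, so the call for the gene ended. How reads were divided among overlapping rows was decided by kallisto and was not tested here.

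Ctr9 (chr7:111028951-111056377, plus strand, 2.151 Mb from Arntl on the same chromosome) was highest at ZT0 and lowest at ZT12 in WT. Its WT libraries held 12.40 and 12.43 TPM at ZT0, 11.30 and 10.69 at ZT4, 10.07 and 10.93 at ZT8, 9.512 and 8.776 at ZT12, 9.506 and 11.39 at ZT16, and 10.34 and 10.53 at ZT20. Its KO libraries held 11.39 and 11.62 TPM at ZT0, 10.81 and 12.91 at ZT4, 11.54 and 12.07 at ZT8, 14.39 and 12.52 at ZT12, 11.68 and 14.75 at ZT16, and 11.01 and 12.38 at ZT20. The KO libraries were below the WT libraries at ZT0 and above them at ZT12, with a KO to WT ratio of 1.47 at ZT12. Ctr9 was not called rhythmic in WT (peak-to-trough 0.32, SE 0.10, limma adjusted p = 0.0691) or in KO (0.22, SE 0.10, adjusted p = 0.335). The test of the difference gave an unadjusted p of 0.00302 and a limma adjusted p of 0.131.

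Ctr9 sat close to the threshold, and its call depended on the rows summed. The protein-coding Ctr9-201 carried 84.8% of its TPM. Summed over protein-coding rows alone, Ctr9 passed in WT (peak-to-trough 0.30, SE 0.07, peak at 2.1 h, limma adjusted p = 0.0193). In that fit the difference between genotypes passed too (limma adjusted p = 0.0342), with a KO peak-to-trough of 0.23 (SE 0.07) at 12.5 h, while KO alone did not pass (adjusted p = 0.126). Tested among transcript rows, Ctr9-201 passed in WT at a limma adjusted p of 0.0389 and in 15 of 24 fits without 1 library, and the genotype difference of that row gave 0.0819. The gene passed in WT without WT ZT16 replicate B (limma adjusted p = 0.0283), and in a fit of the WT libraries alone (adjusted p = 0.0468).

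**Figure D3:**
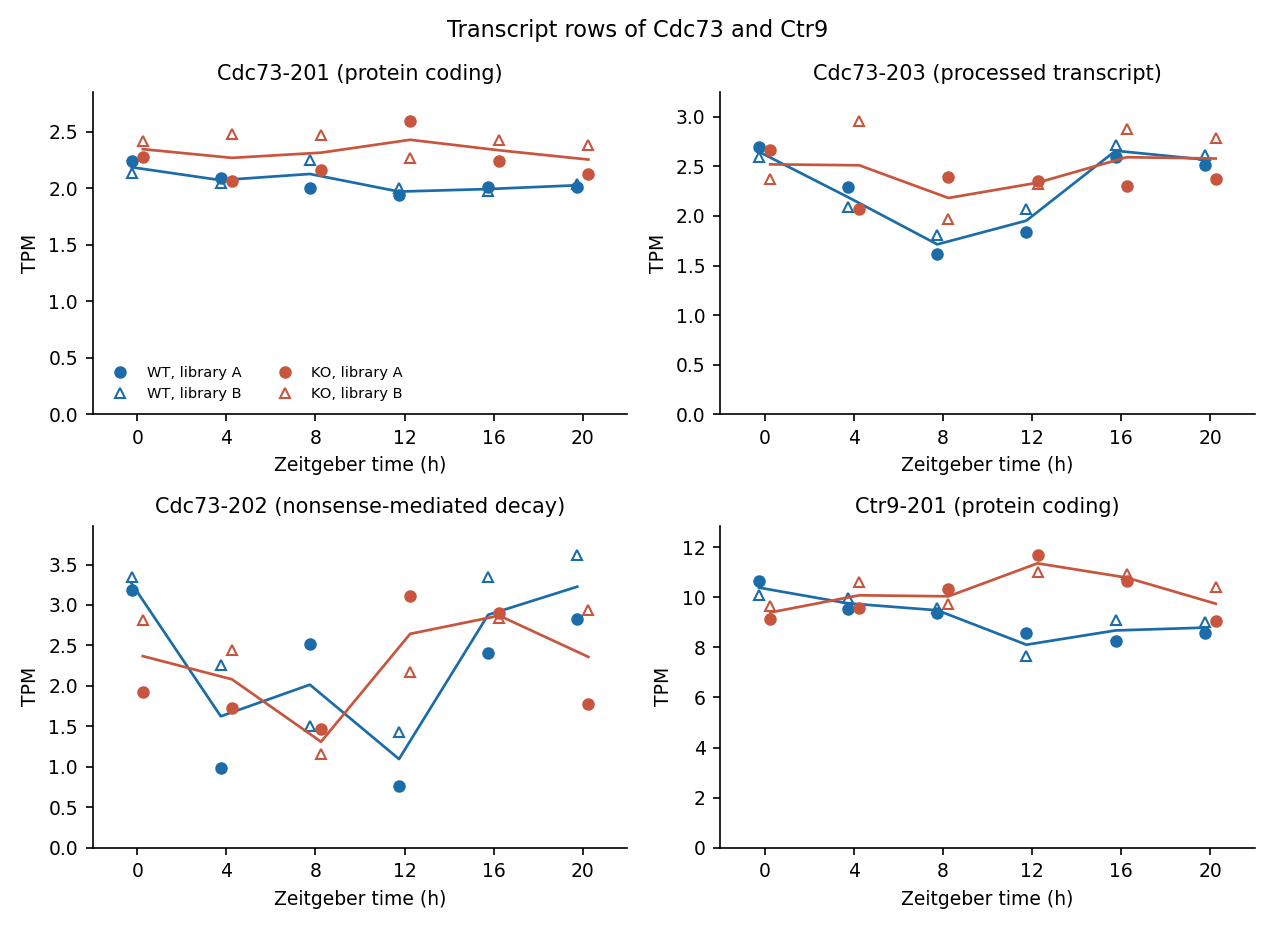
Levels in TPM (vertical axes, each from 0) of 3 Cdc73 rows and of Ctr9-201 against Zeitgeber time in hours, with symbols for libraries A and B and lines through the means, WT in blue and KO in red. Cdc73-201 stays between 1.942 and 2.248 TPM in WT, whereas Cdc73-203 and Cdc73-202 dip between ZT4 and ZT12, and Ctr9-201 is lower in WT than in KO at ZT12.

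Over all rows, 14 of the partners' 34 transcripts had a mean of at least 1 TPM and were tested. Of these, 2 were called rhythmic in WT, Cdc73-203 and Ctr9-201, against 6.86% of the 26725 transcripts tested. In KO limma called 0 (2 at an unadjusted p under 0.05), against 1.2% of transcripts, and a difference was called for 0 (1 at an unadjusted p under 0.05), against 0.266%.

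Paf1, Rtf1 and Wdr61 gave small fitted rhythms. Paf1 (chr7:28392951-28399388, plus strand) had a peak-to-trough of 0.04 (SE 0.11, limma adjusted p = 0.968) in WT and 0.21 (SE 0.11, adjusted p = 0.438) in KO. Both of its WT libraries at ZT8, 55.37 and 55.76 TPM, were above the other 10, which spanned 43.70 to 52.02. A 6-level factor for time, which needs no cosine shape, did not pass either (limma adjusted p = 0.456). Rtf1 (chr2:119675068-119735407, plus strand) had 0.05 (SE 0.08, adjusted p = 0.902) in WT and 0.09 (SE 0.08, adjusted p = 0.765) in KO, with limma. Its WT libraries stayed between 5.812 and 7.125 TPM. Wdr61 (chr9:54714735-54734519, minus strand) had 0.05 (SE 0.07, limma adjusted p = 0.846) in WT and 0.20 (SE 0.07, adjusted p = 0.18) in KO. None of these values passed, and each carries an SE of at most 0.11.

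**Figure D4:**
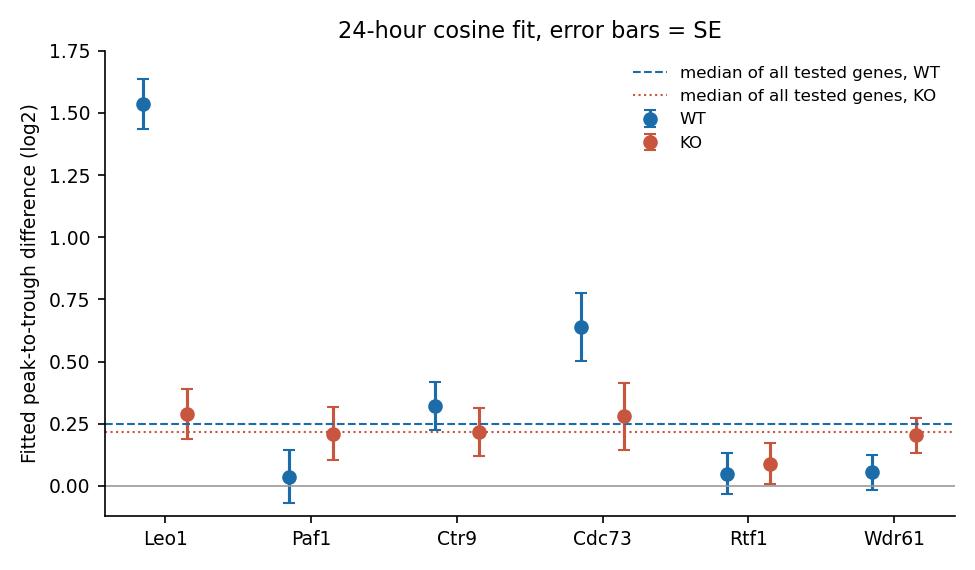
Fitted peak-to-trough difference on the log2(TPM + 0.1) scale (vertical axis) for the 6 members, with points for WT (blue) and KO (red), SE as error bars, and lines at the medians of all genes tested. Leo1 in WT is at 1.54 and Cdc73 in WT at 0.64, and the other fits of the members lie at or below 0.32.

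In mean level over the day, 3 of the 5 partners were higher in KO and 0 were lower, against 50.9% of all genes higher and 10% lower (limma, adjusted p under 0.05). The median change over all genes was itself 0.15 on the log2 scale, KO higher, and the median over the 5 partners was 0.20. Paf1 spanned 43.70 to 55.76 TPM (median 49.2) in WT and 46.12 to 69.99 (median 60.69) in KO, where the lowest other than the library labelled ZT4 A was 54.26. It rose by 0.29 (SE 0.05, limma adjusted p = 5.19e-05), and KO means were above WT means at 6 of 6 times. Rtf1 spanned 5.812 to 7.125 TPM (median 6.498) in WT and 6.774 to 7.925 (median 7.57) in KO. It rose by 0.23 (SE 0.04, limma adjusted p = 7.31e-05), at 6 of 6 times.

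Ctr9 rose by 0.20 (SE 0.06, limma adjusted p = 0.00972), at 5 of 6 times. Paf1, Rtf1 and Ctr9 kept these calls in all 24 fits without 1 library, and were at 0.32, 0.24 and 0.22 without the KO library labelled ZT4 A. Cdc73 differed by 0.09 (SE 0.08, limma adjusted p = 0.324). Summed over protein-coding rows alone, Cdc73 was higher in KO by 0.16 (SE 0.05, limma adjusted p = 0.0046), at 6 of 6 times. Wdr61, at 32.64 to 36.6 TPM in WT and 29.98 to 40.64 in KO, differed by 0.07 (SE 0.04, limma adjusted p = 0.12). Without KO ZT16 replicate A, the library at 29.98 TPM, the Wdr61 difference was 0.10 and passed (limma adjusted p = 0.00408). For 0 of the 6 members did all 12 KO libraries lie above all 12 WT libraries (1.42% of genes) or below them (0.249% of genes).

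These level changes depended on the scaling of the libraries. Mitochondrially encoded genes took 37.99% to 42.46% of TPM in WT and 32.33% to 40.27% in KO. The KO library labelled ZT4 A held the 40.27%, and the next highest KO library held 39.4%. TPM is a share of a fixed total. Under median-of-ratios scaling the median change over all genes was close to 0, with 21.5% of genes higher and 22.6% lower in KO. There Paf1 was still higher by 0.14 (limma adjusted p = 0.00654) and Rtf1 by 0.08 (adjusted p = 0.0458), while Ctr9 lost its call (0.05, adjusted p = 0.479). Cdc73 and Wdr61 turned to lower in KO, at -0.06 (limma adjusted p = 0.486) and -0.08 (adjusted p = 0.146), without passing. The Leo1 difference was 0.57 on that scale. With libraries rescaled without the mitochondrial genes, Ctr9 was at 0.14 (limma adjusted p = 0.0705).

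**Figure D5:**
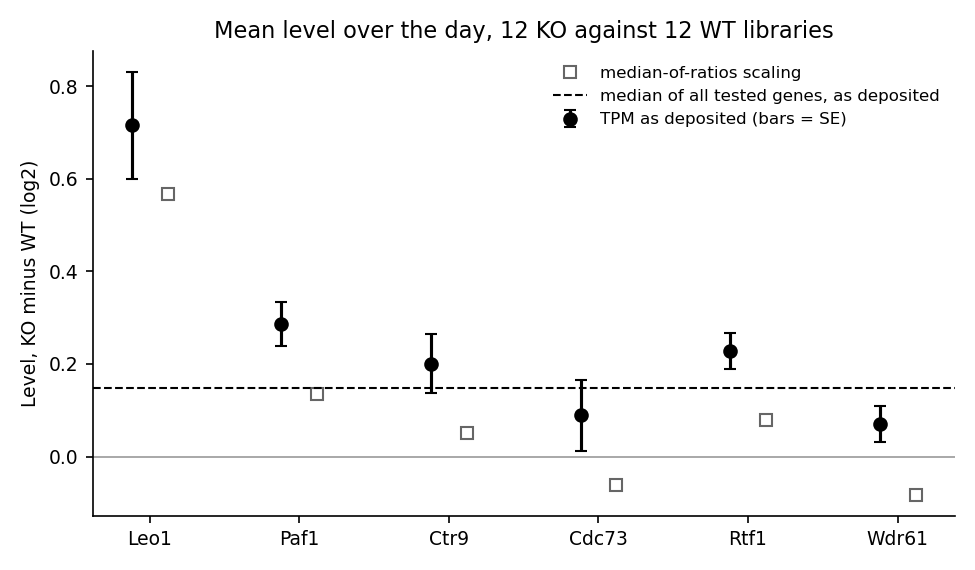
Difference in mean level over the day, KO minus WT in log2 units (vertical axis), for the 6 members, with filled points and SE bars for TPM as deposited, open squares for median-of-ratios scaling, and a dashed line at the median of all genes tested as deposited. Leo1 stands at 0.72 and 0.57, and the squares of Cdc73 and Wdr61 fall below 0.

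Markers of other cells overlapped between the genotypes, with higher values in some KO libraries. The sum of 12 markers of blood, immune, endothelial, fat, adrenal and liver cells, mostly haemoglobin, ran from 497.4 to 1153 TPM in WT and from 666.7 to 1569 in KO. Adrenal markers summed to at most 1.451 TPM in any library, with Cyp11b1 at 0 in 1 library of each genotype. Slc12a1, the cotransporter of the thick ascending limb, had a median of 234.8 TPM in WT and 402.7 in KO, whereas Umod, of the same segment, had 1248 in WT and 897.4 in KO. The liver marker Alb had a median of 2.416 TPM in WT and 0.4505 in KO. The part of these shifts in the members' levels was not tested, and in bulk tissue fewer cells of a type and less RNA per cell cannot be told apart.

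Most of the Paf1 TPM was in rows annotated as retained introns. TPM is divided by transcript length, so a share of TPM held by short rows is not a share of reads. The protein-coding Paf1-201 (2003 bases) carried 25.3% of the gene's TPM. The short retained-intron rows Paf1-205 (467 bases) and Paf1-208 (446 bases) carried 32.4% and 34.2%. All 3 were higher in KO, Paf1-201 by 0.22 (SE 0.04, limma adjusted p = 0.00017), Paf1-205 by 0.36 (SE 0.09, adjusted p = 0.00538) and Paf1-208 by 0.29 (SE 0.06, adjusted p = 0.000869). Protein-coding rows carried 93.3% of the TPM of Rtf1 and 97.4% of that of Wdr61. Among the 14 partner transcripts tested, 7 were higher in KO and 0 lower, against 31.7% and 7.08% of all transcripts.

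The tested genes within 50 kb of Leo1 are Mapk6, a kinase gene 31519 bases away, and Tmod3, an actin-capping tropomodulin gene 31275 bases away. Mapk6 had a WT peak-to-trough of 0.35 (SE 0.12, peak at 5.6 h, limma adjusted p = 0.117) and Tmod3 one of 0.21 (SE 0.10, peak at 22.8 h, adjusted p = 0.31). Both were higher in KO, Mapk6 by 0.34 (SE 0.08, limma adjusted p = 0.000703) and Tmod3 by 0.30 (SE 0.05, adjusted p = 2.45e-05), at 5 and 6 of 6 times. Over all genes tested, 50.9% were called higher in KO and 10% lower, with a median change of 0.15. Dnaja4, a heat shock co-chaperone gene, overlaps Wdr61 on the opposite strand. It was rhythmic in WT (peak-to-trough 0.64, SE 0.13, limma adjusted p = 0.00697) and fell by 0.28 in KO (SE 0.06, limma adjusted p = 0.000457). Strandedness of the libraries is not given in the sources used here, so reads in the overlap cannot be assigned. Of the Wdr61 rows, Wdr61-202, at a mean of 0.0393 TPM, reaches the overlap. B3galt2 and Gm6397 lie within Cdc73 on the opposite strand, at means of 0.168 and 0.101 TPM.

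A list of the wider elongation machinery was examined in the same way. It held 59 genes, with 28 elongation factors, 17 chromatin factors tied to the PAF1 complex, 2 genes of the SKI complex and 12 polymerase II subunits, and all 59 were tested. In WT limma called 1 rhythmic (12 at an unadjusted p under 0.05), against 13.7% of all genes. In KO it called 0 (5 unadjusted), against 3.64%, and for the difference in rhythm 0 (4 unadjusted), against 0.629%. The median WT peak-to-trough of the list was 0.17, against 0.25 over all genes, and in KO it was 0.135, against 0.215. The rhythmic gene was Ell3, an elongation factor of the ELL family, which spanned 4.432 to 12.12 TPM in WT and 6.308 to 12.41 in KO. Its WT peak-to-trough was 1.16 (SE 0.19) with a peak at 7.5 h (SE 0.62, limma adjusted p = 0.00116). Leo1 in WT was lowest at ZT8 and ZT12. In KO the peak-to-trough of Ell3 was 0.59 (limma adjusted p = 0.145), and the test between genotypes gave an adjusted p of 0.291. The KO count became 2 without the KO library labelled ZT4 A (Dpy30 and Ell3) and 2 without KO ZT16 replicate A (Ube2b and Supt4a), genes named after their values were seen.

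In level, 35 of the 59 were higher in KO and 1 was lower, against 50.9% and 10% of all genes, with a median of 0.14 against 0.15 over all genes. By class, 17 of 28 elongation factors, 8 of 17 chromatin factors, 1 of 2 SKI genes and 9 of 12 polymerase subunits were higher. The smallest p-values were those of Wdr5, a subunit of H3K4 methyltransferase complexes, at 0.33 (limma adjusted p = 1.48e-06), and Tcea2, a TFIIS elongation factor, at 0.59 (adjusted p = 6.29e-06). Polr2e, a polymerase subunit, was higher by 0.24 (limma adjusted p = 2.57e-05), and Ssrp1, of the histone chaperone FACT, by 0.28 (adjusted p = 2.65e-05). The gene that fell was Ell2, at -0.23 (limma adjusted p = 0.000405), chosen here because it was alone in its direction. Under median-of-ratios scaling 15 of the 59 were called, of which 6 were higher, against 21.5% of all genes higher and 22.6% lower.

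The genes most like Leo1 were sought by Pearson r of log2 levels over the 12 group means, which share libraries and carry no test. The KO mean at ZT4 includes the library labelled ZT4 A, which stood apart for Cry1 and Nr1d1. How r was spread over all genes is not given here, so no value of r can be called unusual. Among the first 6 were Cnpy4 (r = 0.990), Gm29397 (0.978), Erp29 (0.975), Spsb3 (0.969) and Chmp2b (0.968). Erp29, an endoplasmic reticulum chaperone gene, went from 57.08 to 98.31 TPM in WT and from 84.76 to 115.2 in KO, with a WT peak at 22.2 h. Its WT peak-to-trough was 0.58 (SE 0.09), and that in KO was 0.16 (SE 0.09). The test of the difference in rhythm did not pass for Erp29 (limma adjusted p = 0.235). Erp29 was picked by its r to Leo1 over these same WT and KO means, so a larger value in WT was favoured by the choice. The partners were not among the first 6, which were picked by the highest r. Their r was 0.792 for Ctr9, 0.723 for Cdc73, 0.588 for Rtf1, 0.580 for Paf1 and 0.245 for Wdr61. For 7 clock genes, looked up after the values were seen, r was 0.957 for Clock, 0.921 for Npas2 and 0.909 for Arntl, with 0.772 for Cry1, -0.954 for Dbp, -0.913 for Nr1d2 and -0.841 for Nr1d1.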

How the data were processed

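The authors deposited TPM per transcript for 24 kidney libraries, made with kallisto 0.42.4 per the submitters' processing notes, which name the builds mm10 and GRCm38. The transcript index and the strandedness are not given in the sources used here. Each library's TPM summed to the same total (999999 to 1000001), so depth is unknown and no counting interval is given. Transcripts were matched to GENCODE release M21 by Ensembl ID without version (86119 matched, 2079 did not and were left out) and summed per gene. Genes averaging 1 TPM or more were fitted as log2(TPM + 0.1) with limma 3.58.1 in R 4.3.3 (eBayes with trend and robust). A fold change on that scale understates the change of low genes. The model held a mean, a 24-hour cosine and a sine per genotype over all 24 libraries, and level was tested beside time as a factor. P-values were Benjamini-Hochberg adjusted over all genes or transcripts tested, with a threshold of 0.05. The scripts were tested on simulated data. The members and lists were chosen with earlier results of these data known. Named genes were the 6 members, their overlapping genes and tested genes within 50 kb of Leo1. Further named genes were up to 4 list genes with the smallest p per test and the 6 genes most like Leo1, of which 1 is not reported here. The 20 libraries of chromosome contacts (4C) were not used. The letters A and B were checked as pairs, by the deviations of A over 66 pairs of groups. These correlated with r from -0.323 to 0.338 (median 0.022), and r was over 0.1 for 21 of the 66 pairs. Alternatives changed the pseudocount, the filter, the scaling, the rows summed, the form of time, the libraries fitted and the limma settings.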

Additional observations from a re-analysis of the deposited data

How the results depend on the processing

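The count of partners rhythmic in WT (1 of 5) became 0 with time as a 6-level factor, 2 in the fit of the WT libraries alone, and 1 to 2 without 1 library each. The count of partners that differed in rhythm (0) became 1 with protein-coding transcripts only. The partner transcripts rhythmic in WT (2) became 1 under median-of-ratios scaling and 0 to 2 without 1 library each, with 0 without WT ZT8 replicate B. Elongation list genes rhythmic in WT (1) became 3 under median-of-ratios scaling, 2 with protein-coding transcripts only, 7 in the fit of the WT libraries alone and 1 to 3 without 1 library each. Those rhythmic in KO (0) became 1 with a mean of at least 5 TPM, 1 with protein-coding transcripts only and 0 to 2 without 1 library each. Those that differed in rhythm (0) became 0 to 1, with 1 (Ube2b) without KO ZT16 replicate A. Those that differed in level (36) became 15 under median-of-ratios scaling and 21 without mitochondrial genes, and the share of higher calls among all genes went from 83.6% to 48.7% and 73.2%. Median-of-ratios scaling reversed the level difference of Cdc73 to -0.061 and of Wdr61 to -0.082. The cause of these changes was not tested. The labels do not say what libraries of the same letter share across times. In WT, the A libraries held 12398 to 12640 genes at 1 TPM or more and the B libraries 12661 to 12821. In KO these ranges overlapped, at 12639 to 12911 for A and 12636 to 12865 for B. With the replicate block the partners counted 1 in WT, 0 in KO and 0 for the difference, and genes rhythmic in WT went from 1761 to 1842. Counts over all genes moved by more than 1.5 times as follows. Genes rhythmic in WT (1761) became 576 with the 6-level factor and 2843 in WT alone. Those rhythmic in KO (468) became 28 with the 6-level factor, 12 in KO alone, 295 with no filter, 297 without KO ZT8 replicate B, and 272 when KO ZT0 replicate B was left out. Those that differed in rhythm (81) became 23 with the 6-level factor and 43 with no filter. They became 40 and 37 without WT ZT4 replicates A and B, 47 without WT ZT12 replicate B, 39 and 53 without WT ZT16 replicates A and B, and 50 without KO ZT8 replicate B. The depth of the libraries is unknown and sets no limit that could be computed.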

Other observations

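Besides Leo1, 8 tested genes with a promoter window held the full REV-ERB/ROR element. These genes were looked up after the Leo1 match was seen. Of the 8, 2 were called rhythmic in WT by limma, against 14.4% of the 9577 tested genes with a window. They were Mtfp1, a mitochondrial fission gene, with a WT peak-to-trough of 0.55 (SE 0.14, peak at 20.3 h, limma adjusted p = 0.0249), and Ankrd40, with 0.24 (SE 0.06, peak at 21.1 h, adjusted p = 0.0422). In KO their peak-to-trough was 0.03 (SE 0.14) and 0.10 (SE 0.06), and neither differed between genotypes by the test of the difference (limma adjusted p = 0.336 and 0.664). The remaining genes did not pass in WT. Med28, a Mediator subunit gene, was at 0.38 (SE 0.12, peak at 0.8 h, limma adjusted p = 0.0864). Kdm4c, a histone demethylase gene, was at 0.11 (SE 0.09, peak at 23.9 h, limma adjusted p = 0.657), and Nhlrc3 at 0.08 (SE 0.11, peak at 22.7 h). Dock9 and S100a4 were at 0.40 (SE 0.14, peak at 5.1 h) and 0.70 (SE 0.29, peak at 7.9 h). Egflam was at 0.57 (SE 0.27, peak at 20.4 h) in WT and 0.72 (SE 0.27) in KO. The shorter core was found for 199 tested genes other than Leo1, of which 15.1% were rhythmic in WT, beside the 14.4% of all genes with a window.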
